A study of Mus musculus with 3 samples.

Results

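The genes described here are the nuclear-encoded subunits of the respiratory chain and of ATP synthase, taken by their symbols, which begin with Nduf (without Ndufaf), Uqcr, Cox4, Cox5, Cox6, Cox7, Cox8, Atp5 or Sdh. These symbols took 89 of 28692 rows in each of runs 1 and 2 and 90 of 32285 in run 3. By gene ID, 87 genes were taken in all 3 runs, of 27734 IDs that the runs share, and these 87 are called the members below. There were 36 of complex I, 4 of complex II and 4 of its assembly factors (Sdhaf1 to Sdhaf4, which the prefix Sdh also takes), 8 of complex III, 20 of complex IV and 15 of complex V. Ndufa4 and Ndufa4l2 were placed with complex IV. The 13 protein genes of the mitochondrial genome, with symbols that begin with mt-, were set beside them.

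The respiratory chain passes electrons from NADH (complex I) and succinate (complex II) through complex III and cytochrome c to oxygen (complex IV), and complex V uses the proton gradient that this builds to make ATP. Complexes I, III, IV and V are assembled from subunits of both genomes, so that most subunits are imported from the cytosol while a few core subunits are made inside the mitochondrion. Thymocytes at the double negative (DN) stages, which lack CD4 and CD8, go through phases of rest and rapid division before and after the pre-T cell receptor is tested, and γδ T cells branch off from the same progenitors.

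The series holds 3 droplet (10x) single-cell RNA libraries of thymocytes from C57BL/6 mice, with an age of 6 weeks in the labels and no treatment or engineered allele named, each made once from 4 thymi that were pooled and depleted of CD4 and CD8 expressing cells. Run 1 held total DN and γδ thymocytes, run 2 DN1 and DN2, and run 3 DN1, DN2, DN3 and γδ thymocytes that had been sorted and then mixed. Staining for B220, CD11b, CD11c, NK1.1 and TCRβ served to leave B, myeloid, NK and αβ T cells out of the sort. By the study's account, TCRγδ+ cells were left out of run 2 as well. Each run is thus a group of 1 library, so that levels are given per run without a test between runs, and tests compare cells of different gates within the runs. The runs held 39947415, 52797915 and 98533329 unique molecular identifiers (UMIs, counted transcripts) in 5527, 8887 and 8869 cells, and 5516, 8852 and 7511 cells were kept with 500 to 5000 genes and at most 7% mt- UMIs. The median kept cell held 5989.5, 4844 and 8507 UMIs, respectively. Runs 1 and 2 shared 72 cell barcodes, runs 1 and 3 shared 3, and runs 2 and 3 shared 0.

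Cells were placed in stage gates by a few transcripts, such as Il2ra (CD25), Kit, Ptcra and the Rag genes, and a gate is named with "-like" since it rests on RNA and not on the surface proteins of the sort. DN2a-like cells had Il2ra with Kit or Cpa3 and none of Rag1, Rag2 and Ptcra, DN2b-like cells had any of those as well, and DN3-like cells had Il2ra and Ptcra without Kit and Cpa3. DN4-like cells had Cd4, Cd8a or Cd8b1 without Il2ra, Kit and Cpa3. The γδ-like gate took cells with Trdc and at least 2 further genes of the lineage such as Sox13 and Maf, and the NK-receptor-like gate those with at least 2 of 8 receptor and effector genes such as Il2rb and Nkg7 and without Il2ra. The DN2a-like gate held 363, 1644 and 831 cells in runs 1, 2 and 3, the DN2b-like gate 221, 781 and 836, the DN3-like gate 1058, 829 and 1253, the γδ-like gate 312, 619 and 965, and the NK-receptor-like gate 44, 2196 and 1387. The labels of run 2 name neither DN3 nor γδ thymocytes, so that the names of its DN3-like and γδ-like gates go against that sort. The study used Ptcra and the Rag genes to tell DN2b from DN2a cells. Whether DN3-like cells of run 2 are late DN2 cells was not tested. The γδ-like cells of run 2 come from a sort without TCRγδ+ cells, while runs 1 and 3 held sorted TCRγδ+ thymocytes. The NK-receptor-like cells were found although NK1.1 served to leave NK cells out, and their gate rests on transcripts alone. A DN4-like gate was nearly confined to run 1, with 1125 cells against 34 and 39, and an ETP-like gate held 0, 3 and 5 cells and was not used. Markers that no gate used were checked in CPM, the UMIs of a gene per 1000000 UMIs of the gate. Notch3 stood at 49.5, 40.7 and 108 CPM in the DN3-like gate against 20, 14.5 and 21.3 CPM in the DN2a-like gate, while Lyl1 stood at 31.9, 36.3 and 21.2 CPM in DN2a-like cells and at 0.939, 0.521 and 0.801 CPM in DN3-like cells. Gata2, another marker looked for in DN2a-like cells, stood at 0, 0.325 and 0.09 CPM there. Gzma, a granzyme, was at 1705, 974 and 2105 CPM in the γδ-like gate, and Ctsw, a protease of killer cells, at 136, 640 and 594 CPM in the NK-receptor-like gate. With no other gate set beside them, these levels do not show that Gzma or Ctsw is particular to its gate. Within a gate, cells with at least 4 of 20 cell cycle genes were called cycling and those with at most 1 resting. Cells in no gate made up 42.8%, 26.7% and 16.9% of the runs.

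The promoters of the members are shown first, as the sequences of the group, and whether their motifs go with any change in level was not tested. RefSeq promoters of mouse GRCm38.p6, each from 250 bases before to 50 bases after a gene start, were found for 71 of the 87 members, in 76 windows. They were searched on both strands for 3 motifs known from genes of this kind. GCGCANGCG, the site of nuclear respiratory factor 1 (NRF1), was in 23 of the 76 windows (30.3%), against 6.25% of all 32851 promoters of this length. CCGGAAG, the core site of ETS factors such as GABP, was in 19 (25%) against 8.86%, and AAGATGGC, a YY1 site, in 9 (11.8%) against 2.75%. At least 1 of the 3 was in 42 windows (55.3%), against 16% of all promoters. Each motif was counted by itself, and an NRF1 match can lie on both strands of the same bases. These shares describe letters and not binding. The set of all promoters was not matched to the members for base content or expression, so that the excess is not read as particular to them. To show members with and without such matches, 4 that the results turn on are given with the 250 bases before their start, 5′ to 3′ on the strand of the gene, with matches in capitals. They are Cox6a1 (chr5:115348959-115349208, minus strand), Atp5k (chr5:108434400-108434649, minus strand), Cox5a (chr9:57520982-57521231, plus strand) and Cox7a2l (chr17:83514334-83514583, minus strand).
Cox6a1: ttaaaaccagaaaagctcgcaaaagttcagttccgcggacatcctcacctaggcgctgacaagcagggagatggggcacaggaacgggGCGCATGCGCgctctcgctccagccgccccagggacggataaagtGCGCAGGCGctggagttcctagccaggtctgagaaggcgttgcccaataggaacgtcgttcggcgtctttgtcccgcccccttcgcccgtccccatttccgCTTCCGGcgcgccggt
Atp5k: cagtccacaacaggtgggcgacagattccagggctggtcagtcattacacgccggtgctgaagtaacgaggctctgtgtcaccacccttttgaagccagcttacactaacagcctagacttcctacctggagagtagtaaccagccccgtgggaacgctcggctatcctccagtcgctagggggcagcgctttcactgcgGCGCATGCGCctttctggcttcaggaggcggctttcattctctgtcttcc
Cox5a: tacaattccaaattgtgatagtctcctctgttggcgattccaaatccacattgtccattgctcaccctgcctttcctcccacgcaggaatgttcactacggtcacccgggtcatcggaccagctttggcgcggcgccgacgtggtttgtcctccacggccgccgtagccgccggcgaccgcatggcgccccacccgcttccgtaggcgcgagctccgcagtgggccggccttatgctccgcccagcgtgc
Cox7a2l: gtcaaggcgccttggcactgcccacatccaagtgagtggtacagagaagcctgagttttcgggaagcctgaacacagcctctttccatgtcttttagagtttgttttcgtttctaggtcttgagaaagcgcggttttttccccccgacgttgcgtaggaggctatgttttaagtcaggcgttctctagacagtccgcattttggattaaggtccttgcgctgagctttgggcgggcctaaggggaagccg
Cox6a1 and Atp5k each hold NRF1 matches in these bases, and Cox6a1 also holds an ETS match, while that of Atp5k lies after its start, outside the bases shown. Cox5a and Cox7a2l hold no match to the 3 motifs here. The RefSeq start of Cox7a2l lies inside the range given for the gene below.

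Shares of a run are given over the UMIs of its kept cells, which were 39803308, 52629426 and 78289786 in runs 1, 2 and 3. The upper limit on genes per cell had removed 3, 2 and 552 cells, respectively. The part of this removal in the order of the runs was not tested. The members together made up 3.43% (95% exact Poisson interval 3.43 to 3.44) in run 1, 2.76% in run 2 and 2.34% in run 3. The mt- protein genes made up 2.62%, 3.13% and 3.05%, so that the order of the runs was not the same for both genomes, and ribosomal protein genes 30.3%, 30.7% and 30.8%. Intervals cover counting error only. Of 81 members with at least 100 UMIs in run 1, 79 were lower in run 3 than in run 1, with a median ratio of 0.67. All genes were not counted in this way, so that this count is not read as particular to the members. The runs differ in sort and depth, and the study used more than 1 kit and software version, so that these cannot be told apart.

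These libraries count the 3′ end of each transcript once, so that a level is not divided by gene length. Within each complex the member with the highest mean level over the 3 runs is named. In complex I this was Ndufa2, an accessory subunit, at 455, 422 and 322 CPM in runs 1, 2 and 3, although in run 3 Ndufa13, at 357 CPM, was higher. In complex II it was Sdhb, the iron-sulfur subunit, at 406, 234 and 165 CPM, and among its assembly factors Sdhaf4 at 37.7, 51.9 and 32.4 CPM, where Sdhaf2, at 38.9, 39.4 and 38.0 CPM, was higher in runs 1 and 3. Uqcrh, the hinge protein of complex III, stood at 664, 680 and 640 CPM. Cox4i1, the common isoform of subunit IV of complex IV, stood at 1158, 925 and 908 CPM, and Atp5b, the catalytic β subunit of ATP synthase, at 1707, 1088 and 749 CPM. Thus Uqcrh had nearly the same level in all runs, while the level in run 3 was 0.439 of that in run 1 for Atp5b and 0.407 for Sdhb. Of the 87 members, 79 had at least 1000 UMIs in every run. The 10 with the highest mean level over the 3 runs held 27.7%, 29.2% and 29.5% of the members' UMIs. Another 5 had fewer than 100 UMIs in every run, of which 2 (Cox7b2 and Cox8b, testis and muscle isoforms) had none.

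Tissue-restricted isoforms of complex IV were low beside their common partners. Cox6b1, the common isoform, stood at 669, 587 and 472 CPM, and Cox6b2, known from testis, at 39.0, 78.5 and 61.3 CPM. Cox7a1, a heart and muscle isoform, stood at 7.86, 5.81 and 3.79 CPM against 598, 429 and 390 CPM for Cox7a2, the common one. Cox6a2, another muscle isoform, stood at 2.29, 6.16 and 7.54 CPM against 599, 466 and 280 CPM for Cox6a1. Cox4i2, a lung isoform, stood at 0.377, 0.608 and 0.856 CPM. Cox8c was at 0.0251, 0 and 0.0128 CPM and Ndufa4l2, which hypoxia induces in other cells, at 0, 0.038 and 0.0766 CPM, against 861, 804 and 756 CPM for Cox8a and 611, 530 and 412 CPM for Ndufa4. Thus of these isoforms only Cox6b2 reached 10 CPM in any run. The ring subunit c of ATP synthase is made from 3 genes, and all were present: Atp5g1 at 800, 511 and 456 CPM, Atp5g2 at 744, 737 and 627 CPM and Atp5g3 at 460, 332 and 265 CPM.

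In every gate and run with at least 20 cells of each kind, the members took a larger share of UMIs in cycling than in resting cells. This held in 15 of 15 pairs of gate and run, with intervals that did not overlap, by 0.32 to 0.851 percentage points or a ratio of 1.13 to 1.38. At rest and in cycle, the share was 2.63% and 2.98%, 2.48% and 2.91%, and 2.14% and 2.46% in DN2a-like cells of runs 1, 2 and 3. In DN2b-like cells it went from 2.58% to 3.20%, from 2.49% to 3.01% and from 2.09% to 2.53%. DN3-like cells went from 2.62% to 3.48%, from 2.53% to 3.13% and from 2.11% to 2.63%. Resting cells of these 3 gates were thus close to each other within a run, and cycling DN3-like cells held the largest share of the 3 gates in each run. Among γδ-like cells it was 2.72% and 3.55%, 2.30% and 2.97%, and 1.88% and 2.59%. DN4-like cells of run 1 went from 2.95% to 3.76%, the highest share of all gates. NK-receptor-like resting cells held the smallest shares, 2.20% and 1.85% in runs 2 and 3, against 2.95% and 2.43% in their cycling cells.

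**Figure D1:**
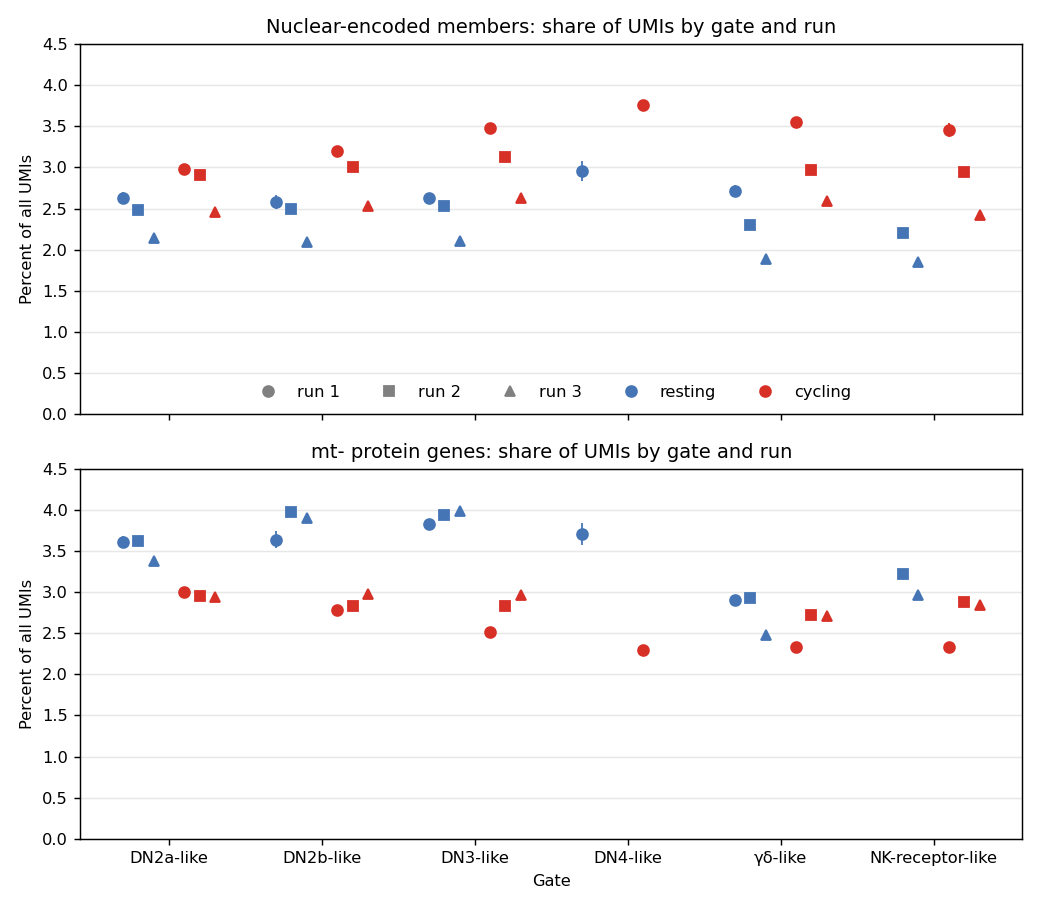
Percent of all UMIs on the nuclear-encoded members (top) and the 13 mt- protein genes (bottom) by gate, for resting (blue) and cycling (red) cells of run 1 (circle), run 2 (square) and run 3 (triangle), with 95% exact Poisson intervals. The nuclear share is higher in cycling cells in all 15 pairs, while the mt- share is lower in 14 of them.

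The mt- protein genes went the other way in 14 of the 15 pairs. In DN3-like cells their share was 3.83% at rest and 2.51% in cycle in run 1, 3.93% and 2.83% in run 2, and 3.98% and 2.96% in run 3. DN2a-like cells had 3.60% and 2.997%, 3.62% and 2.95%, and 3.37% and 2.94%. The pair that went up was γδ-like cells of run 3, from 2.48% to 2.71%. The ratio of nuclear to mt- UMIs in DN3-like cells thereby went from 0.685 to 1.38, from 0.644 to 1.11 and from 0.530 to 0.888. The limit of 7% on mt- UMIs caps the mt- share in each cell.

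The number of UMIs per cell moved with the cell cycle. The median DN3-like cell held 2919.5, 3827 and 6592 UMIs at rest and 8908, 8491 and 11414 UMIs in cycle, and the members gave 82.8, 100 and 140 UMIs per resting cell and 343, 283 and 357 UMIs per cycling cell. A cell with more UMIs also has more chances to show 4 cell cycle genes. Resting and cycling cells were therefore also compared within ranges of UMIs that held at least 20 of each. There were 20 such ranges over all gates and runs. The members' share was higher in cycling cells in 17 of them, with intervals apart in 10, and lower in 3 with intervals that overlapped. The median difference was 0.153 percentage points, and it was 0.137 over 3 ranges in run 1, 0.249 over 5 in run 2 and 0.091 over 12 in run 3. In DN3-like cells with 4000 to 6000 UMIs, the share was 2.58% at rest and 2.998% in cycle in run 1, 2.62% and 2.72% in run 2, and 2.001% and 2.05% in run 3. With 6000 to 8000 UMIs in run 3 it was 2.09% and 2.07%, and with 8000 to 12000 it was 2.27% and 2.26%. Within cycling DN3-like cells of run 3, the share went from 2.05% at 4000 to 6000 UMIs to 2.92% at 16000 UMIs or more. Thus intervals overlapped in each of the 3 ranges of DN3-like cells in run 3 and in the 1 of run 2, and were apart in 1 of 2 in run 1. A range does not make depth equal. In DN3-like cells of run 1 with 4000 to 6000 UMIs, the median was 4453 UMIs at rest and 5132 in cycle. In the same range it was 4654 and 5432 in run 2, and 5329 and 5412 in run 3. In DN2a-like cells of run 3 with 6000 to 8000 UMIs it was 7278 and 7140.5, so that resting cells were deeper there. The mt- share was lower in cycling cells in 14 of the 20 ranges (10 apart) and higher in 6, of which the 4 with intervals apart were all in run 3. Among cells within 1.5-fold of their run's median UMIs, the share was higher in cycling cells in 11 of 11 pairs with intervals apart, by 0.0857 to 0.667 points. In DN3-like cells it was then 2.57% and 3.24%, 2.57% and 2.81%, and 2.14% and 2.23%, and cycling cells still held more UMIs, with medians of 4464 and 6396, 4157.5 and 5969, and 7009.5 and 8938.

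**Figure D2:**
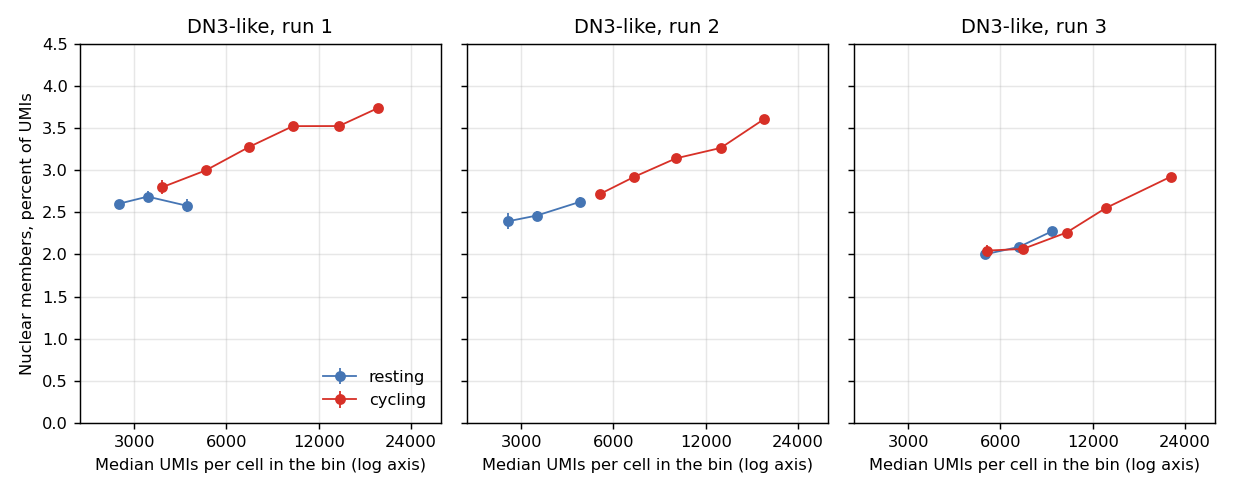
Percent of UMIs on the nuclear-encoded members in DN3-like cells, resting (blue) and cycling (red), against the median UMIs per cell in each range of depth (log axis), one panel per run, with 95% exact Poisson intervals. The share goes up with depth in cycling cells of each run, and the 2 lines run together in run 3.

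By complex, the shares of DN3-like cells were larger in cycle for complexes I to V and not for the assembly factors of complex II. Complex V went from 0.787% to 1.13% of UMIs in run 1, from 0.785% to 1.05% in run 2 and from 0.659% to 0.870% in run 3. Complex I went from 0.792% to 1.0005%, from 0.725% to 0.864% and from 0.626% to 0.758%, and complex IV from 0.668% to 0.867%, from 0.657% to 0.788% and from 0.551% to 0.681%. Complex III went from 0.303% to 0.378%, from 0.294% to 0.339% and from 0.226% to 0.269%. Complex II, the smallest, went from 0.0585% to 0.0866%, from 0.0553% to 0.0744% and from 0.0342% to 0.0423%. Its assembly factors stood at 0.0152%, 0.0142% and 0.0124% at rest and at 0.0126%, 0.0142% and 0.0107% in cycle.

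Single members were then tested on UMIs summed over the cells of a gate in each run, with the run as a block (n = 3 runs), by the quasi-likelihood F test of edgeR with Benjamini-Hochberg adjustment over all genes tested. Run 2 serves as a replicate of the DN3-like gate although it was sorted as DN1 and DN2. A summed level cannot tell fewer cells that hold a transcript from less of it in each cell. In cycling against resting DN3-like cells, 58 of 82 members tested were higher and 3 were lower (70.7% and 3.66%), while 19.4% of all 9366 genes tested were higher, 19.8% lower and 39.2% either. The median log2 fold change was 0.43 for the members and -0.06 for all genes. Complex V stood out with 14 of 15 higher, followed by complex II with 3 of 4, complex I with 26 of 36, complex IV with 10 of 15 (2 lower) and complex III with 5 of 8 (1 lower), and 0 of the 4 assembly factors of complex II passed. In DN2a-like cells 40 of 81 members were higher and 3 lower (49.4% and 3.7%), beside 15.9% and 14.8% of all genes and 30.7% either way. In DN2b-like cells it was 43 and 2 of 80 (53.8% and 2.5%), beside 14.6% and 14.3%, and 28.9% either way. DESeq2 shifted the balance of all genes, with 1277 higher and 801 lower in DN3-like cells against 1820 and 1851 in edgeR, 733 and 388 against 1295 and 1206 in DN2a-like cells, and 575 and 292 against 1066 and 1046 in DN2b-like cells.

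These comparisons use different cells of the same 3 libraries. Of the 80 members tested in all 3, 35 (43.8%) were higher in all 3, beside 12% of 7238 genes, and 1 (1.25%), Cox7a2l, was lower in all 3, beside 7.58%. Of the 82 members tested in at least 1, 59 (72%) were higher in at least 1, beside 21.4% of 9418 genes, and 5 (6.1%) lower, beside 25.5%. With members not tested included, 23 passed in none, and no member was called in both directions. When DN3-like cells were limited to those within 1.5-fold of their run's median UMIs, 2 of 80 members were higher and 0 lower, and 253 and 48 of 7681 genes, with a median log2 fold change of 0.23 for the members. The limit kept 39, 146 and 164 resting cells and 252, 157 and 289 cycling cells, and the part of depth in the calls was not tested.

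**Figure D3:**
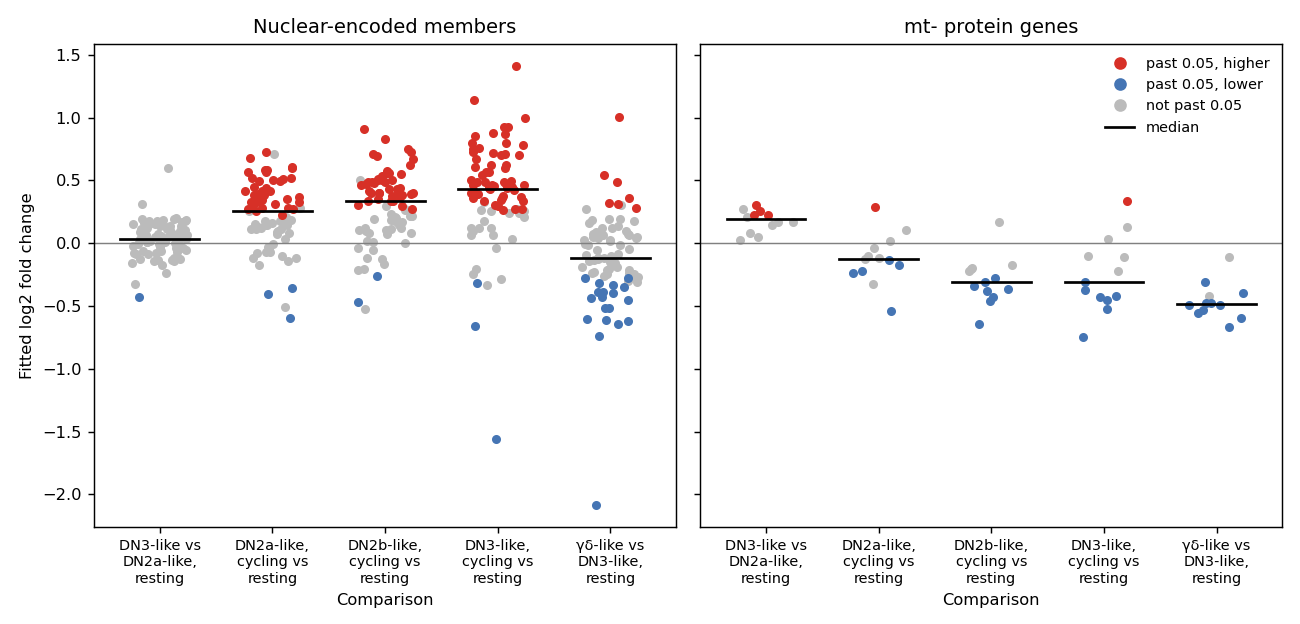
Fitted log2 fold change of each nuclear-encoded member (left) and mt- protein gene (right) in 5 comparisons, with members past an adjusted p of 0.05 in red (higher) or blue (lower), the others in gray, and the median as a bar. The members lie mostly above 0 in the 3 comparisons of cycling with resting cells and around or below 0 in the other 2, and the mt- genes lie mostly below 0 where cycling is compared with resting.

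Cox5a, a structural subunit of complex IV (GRCm38 chr9:57521274-57532426, plus strand), rose by the most among well-counted members in DN3-like cells. It stood at 285, 265 and 276 CPM at rest and at 634, 579 and 528 CPM in cycle, so that the groups did not overlap. Its log2 fold change was 1.14 ± 0.10 (SE), with an adjusted p of 1.83e-08 in edgeR. In DN2a-like cells, where it stood at 370, 359 and 406 CPM at rest and at 560, 613 and 559 CPM in cycle, it was 0.68 ± 0.08, and in DN2b-like cells 0.83 ± 0.11.

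Uqcrq, a small subunit of complex III that lies next to cytochrome b (chr11:53427922-53430831, minus strand), stood at 317, 254 and 278 CPM at rest and at 640, 485 and 495 CPM in cycle in DN3-like cells. Its log2 fold change was 0.999 ± 0.10 (adjusted p = 1.12e-07 in edgeR), and it led the other cycling comparisons with 0.73 ± 0.09 in DN2a-like and 0.91 ± 0.11 in DN2b-like cells. Uqcr10, another small subunit of complex III, rose by 0.78 in DN3-like, by 0.60 in DN2a-like and by 0.72 in DN2b-like cells.

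Ndufab1, the mitochondrial acyl carrier protein that is also part of complex I, stood at 204, 167 and 147 CPM in resting and at 381, 298 and 260 CPM in cycling DN3-like cells, a log2 fold change of 0.93 ± 0.11 (adjusted p = 5.65e-07 in edgeR). Atp5k, the e subunit of ATP synthase, went from 264, 255 and 175 CPM to 520, 493 and 271 CPM, a log2 fold change of 0.93 ± 0.11 (adjusted p = 8.5e-07). Both groups were apart for Ndufab1, while the resting level of Atp5k in run 1 lay near its cycling level in run 3. Cox7a1 is counted among the 58 higher ones, but its resting cells held 3 UMIs in each run and would not have passed the filter on low counts by themselves (1 of their 3 sums reached its level), so that nothing is read from its call. That is 3.5 CPM (interval 0.7 to 10.1), 3.7 (0.8 to 10.9) and 2.0 (0.4 to 5.8), against 9.3, 9.2 and 4.9 CPM in cycling cells, with the intervals of both kinds overlapping in each run.

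Of the other common isoforms in DN3-like cells, Cox6a1 rose by 0.88, Ndufa4 by 0.87, Cox7a2 by 0.75, Cox8a by 0.57 and Cox7b by 0.47 on the log2 scale. The 3 genes of the ring rose too, Atp5g1 by 0.85, Atp5g3 by 0.80 and Atp5g2 by 0.50. Among catalytic and core subunits, Ndufv1 and Ndufs1, which carry the flavin and iron-sulfur clusters of complex I, rose by 0.72 and 0.44. Sdhb, Sdhd and Sdha of complex II rose by 0.71, 0.46 and 0.30, Atp5b and Atp5a1 of ATP synthase by 0.61 and 0.43, and Uqcrc1 of complex III by 0.36. Adjusted p-values in edgeR ran from 6.82e-07 for Ndufa4 to 0.0441 for Sdha. Not all of the listed isoforms and core subunits passed. Cox4i1 had 0.06 ± 0.09 (adjusted p = 0.621), with 1116, 1064 and 977 CPM at rest and 1179, 970 and 993 CPM in cycle. Uqcrc2 had 0.09 ± 0.11, Cox6b1 0.24 ± 0.10, Uqcrfs1, the Rieske protein, 0.26 ± 0.11 and Sdhc 0.33 ± 0.14, with adjusted p from 0.0514 to 0.533.

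Cox7a2l, counted here with complex IV although it is not a plain subunit of it (chr17:83501918-83517330, minus strand), fell. A role in joining complexes III and IV in supercomplexes has been described for it. Whether it has that role in this mouse strain was not tested, so nothing about supercomplexes is read from the fall of Cox7a2l. In DN3-like cells it stood at 863, 780 and 585 CPM at rest and at 447, 462 and 411 CPM in cycle, and the groups did not overlap. Its log2 fold change was -0.66 ± 0.10 (adjusted p = 1.78e-05 in edgeR), and it was -0.60 ± 0.08 in DN2a-like and -0.47 ± 0.10 in DN2b-like cells. In γδ-like cells, where cycling was not tested, it stood at 1045, 888 and 775 CPM at rest and at 452, 508 and 440 CPM in cycle.

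Uqcrh also fell in DN3-like cells, from 823, 831 and 763 CPM to 646, 621 and 580 CPM (log2 fold change -0.31 ± 0.09, adjusted p = 0.0111 in edgeR), and in DN2a-like cells by 0.36. In DN2b-like cells it had -0.21 ± 0.09 (adjusted p = 0.0837). Cox6a2, the other member called lower, was likewise over the filter's level in 1 of 3 cycling and 2 of 3 resting sums, and nothing is read from its call. It had 6, 16 and 5 UMIs in resting and 8, 17 and 22 UMIs in cycling DN3-like cells, which is 6.9, 19.9 and 3.3 CPM against 1.35, 4.0 and 2.9 CPM, so that the groups overlapped. Ndufa6, an accessory subunit of complex I, fell by 0.40 ± 0.09 in DN2a-like cells (adjusted p = 8.86e-05), and Ndufa13, another one, fell by 0.26 ± 0.10 in DN2b-like cells (adjusted p = 0.0478).

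**Figure D4:**
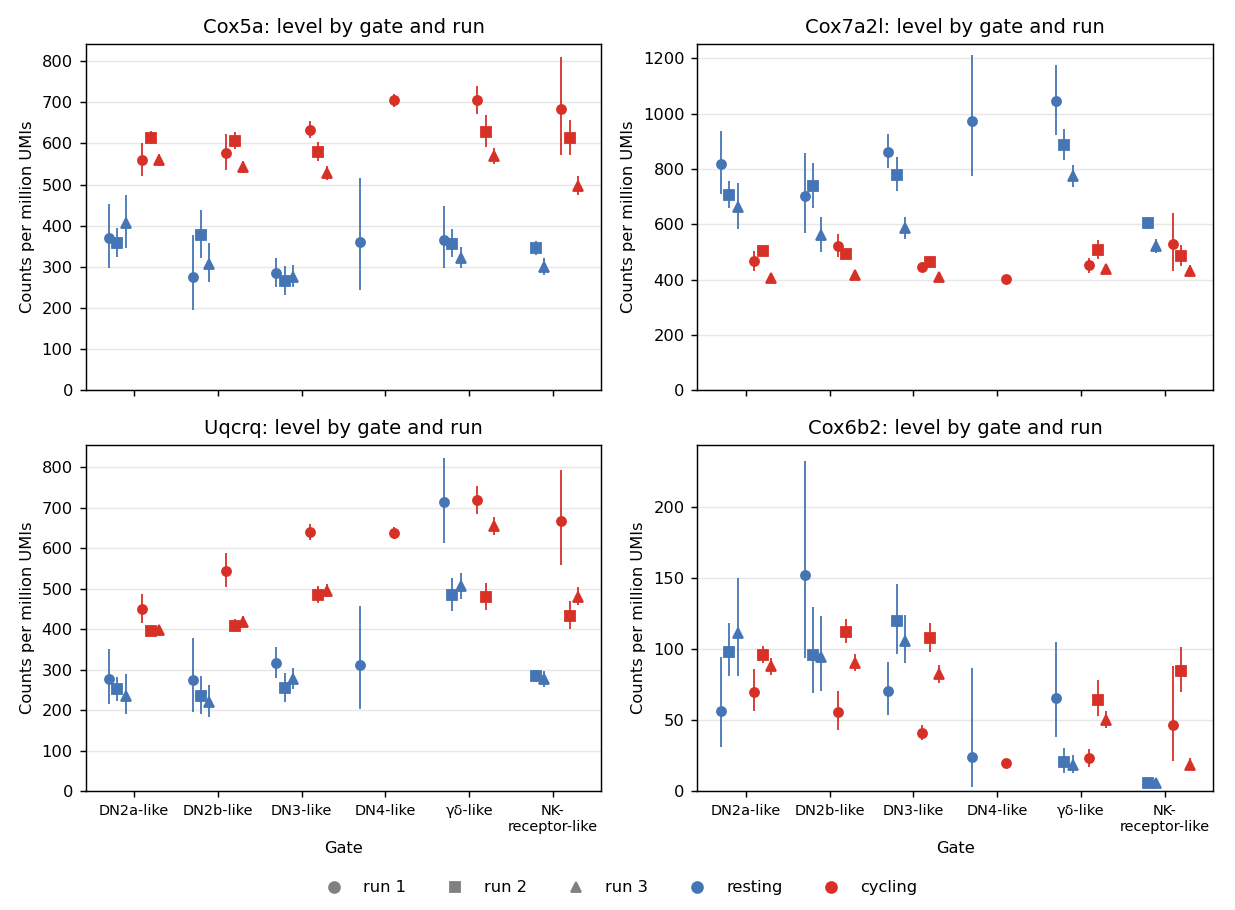
Level of Cox5a, Cox7a2l, Uqcrq and Cox6b2 in CPM by gate for resting (blue) and cycling (red) cells of each run (circle, square and triangle for runs 1, 2 and 3), with 95% exact Poisson intervals. Cox5a is higher and Cox7a2l lower in cycling cells of each gate drawn with both, Uqcrq is as high in resting as in cycling γδ-like cells of runs 1 and 2, and Cox6b2 lies near 0 in resting NK-receptor-like cells.

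Of the mt- protein genes, 7 of 13 fell and 1 rose in cycling DN3-like cells, with a median log2 fold change of -0.31. mt-Co1, the catalytic core of complex IV, fell the most, from 6874, 6740 and 6460 CPM to 3638, 3677 and 4069 CPM (log2 fold change -0.75 ± 0.09, adjusted p = 5.84e-07 in edgeR). mt-Co3 fell by 0.53, mt-Atp6 by 0.46, mt-Cytb by 0.43, mt-Co2 by 0.42, mt-Nd5 by 0.38 and mt-Nd4 by 0.31. mt-Nd1 rose, from 2071, 2470 and 1794 CPM to 2448, 3041 and 2107 CPM (0.33 ± 0.09, adjusted p = 0.00442). mt-Nd2, mt-Nd3, mt-Nd4l, mt-Nd6 and mt-Atp8 ran from -0.22 to 0.13 and did not pass. In DN2a-like cells 5 fell and 1, again mt-Nd1, rose, and in DN2b-like cells 8 fell and 0 rose. In DN2b-like cells mt-Nd1 had 0.17 ± 0.09 (adjusted p = 0.144). These counts rest on the runs. Without run 1, 1 mt- gene fell in DN3-like cells, 1 in DN2a-like and 5 in DN2b-like cells. It was also 1 in DN3-like cells within 1.5-fold of the median UMIs, and 1 in DN2a-like cells with no filter on low counts or with all gates in 1 fit. Within complex IV, Cox5a was higher and mt-Co1 lower in cycling DN3-like cells of each run.

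Whether the effect of cycling differed between DN3-like and DN2a-like cells was tested as a difference of the fold changes over 12 summed libraries. By edgeR, 0 of 82 members and 0 of 13 mt- genes passed, where 0.066% of 9091 genes were higher, 0.088% lower and 0.154% either way. At an unadjusted p under 0.05 there were 17 members and 800 genes. DESeq2 called 0 members and 4 genes in each direction. The median of the members' differences was 0.16 and that of all genes 0.02 (log2). The larger fold changes in DN3-like cells were thus not shown to differ from those of DN2a-like cells.

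Between resting DN3-like and resting DN2a-like cells few members passed the test. Of 80 members 0 were higher and 1 was lower, while 3.81% of 7224 genes were higher, 4.84% lower and 8.65% either way. At an unadjusted p under 0.05 there were 9 members, and DESeq2 called 0. The one member was Cox5a, at 370, 359 and 406 CPM in DN2a-like and at 285, 265 and 276 CPM in DN3-like cells, groups that did not overlap (log2 fold change -0.43 ± 0.10, adjusted p = 0.0018 in edgeR). The call was lost without run 2, without the run as a block and with DESeq2. The same sums of resting cells stand in the comparisons with cycling cells above. Of 12 mt- genes tested, 4 were higher in DN3-like cells, mt-Co2 by 0.30, mt-Cytb by 0.26, mt-Atp6 by 0.22 and mt-Co3 by 0.22. Without run 2 or with all gates in 1 fit it was 0, and without run 3 it was 1.

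Resting γδ-like cells were compared with the same resting DN3-like sums, so that this comparison shares samples with those above. The runs serve as replicates although run 2 was sorted without TCRγδ+ cells and the others with them. Of 80 members 7 were higher and 19 lower (8.75% and 23.8%), beside 17.6% and 14.5% of 7599 genes, and 32.1% either way. The median log2 fold change was -0.12 for the members and 0.03 for all genes. The members' share was 2.72%, 2.30% and 1.88%, against 2.62%, 2.53% and 2.11% in resting DN3-like cells. It was thus higher in run 1 and lower in runs 2 and 3. The median resting γδ-like cell held 3156.5, 2820 and 5895 UMIs, against 2919.5, 3827 and 6592 UMIs. The part of depth was not tested. Of 12 mt- genes, 10 were lower and 0 higher, with a median of -0.49. The count rests on the runs, with 16 members past the threshold without run 2 and 11 without run 3. Complex V had 6 of 15 lower and 0 higher, complex I 6 of 36 lower and 1 higher, complex III 3 and 2 of 8, and complex IV 2 lower and 4 higher of 13.

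Uqcrq was the member that differed upward the most, at 713, 484 and 507 CPM in resting γδ-like cells against 317, 254 and 278 CPM in resting DN3-like cells (log2 fold change 1.01 ± 0.11, adjusted p = 9.88e-11 in edgeR). In cycling γδ-like cells it stood at 718.5, 479 and 655 CPM, with intervals that overlapped those at rest in runs 1 and 2. Ndufv3, an accessory subunit of complex I, was higher by 0.55, Ndufa4 by 0.49, Cox5a by 0.36, Cox7a2l by 0.32, Cox6a1 by 0.31 and Uqcrh by 0.28. Thus Uqcrq, Cox5a, Ndufa4 and Cox6a1, which were higher in cycling DN3-like cells, were also higher here, and so were Cox7a2l and Uqcrh, which were lower in cycling cells.

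Cox6b2 was the member that differed downward the most, with a log2 fold change of -2.08 ± 0.23 (adjusted p = 7.55e-11 in edgeR). It stood at 65.5, 20.3 and 18.2 CPM in resting γδ-like cells and at 70.6, 120 and 106 CPM in resting DN3-like cells. Run 1 thus showed almost no difference (17 UMIs in its γδ-like cells, interval 38.2 to 104.9 CPM), and runs 2 and 3 carried it. In resting NK-receptor-like cells it stood at 5.44 and 5.59 CPM in runs 2 and 3, and in DN2a-like resting cells at 56.3, 98.2 and 112 CPM. Ndufa12, Ndufc2 and Uqcr11, accessory subunits of complexes I and III, were lower by 0.74, 0.61 and 0.62 on the log2 scale, where Ndufa12 stood at 170, 121 and 103 CPM against 263, 196 and 193 CPM. Atp5g1 fell by 0.60, Sdhaf4, an assembly factor of complex II, by 0.64 and Atp5b by 0.39, the last from 1067, 1060 and 670 CPM to 860, 764 and 489 CPM.

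NK-receptor-like resting cells were tested against resting DN3-like cells in runs 2 and 3 alone (n = 2 runs, 4 sums), since run 1 held 14 of them and the planned test asked for 20 in every run. This was chosen after seeing the data, and it uses the resting DN3-like sums again. Of 80 members 10 were higher and 13 lower (12.5% and 16.2%), beside 21.1% and 21.3% of 9467 genes, and 42.3% either way. The median log2 fold change was -0.05 for the members and -0.03 for all genes. DESeq2 called 5 members higher and 5 lower, and with no filter on low counts it was 12 and 6 in edgeR, so that the balance of both directions depends on the setting. The fitted changes are scaled by TMM, while CPM are not. By CPM, 26 of 87 members were lower and 3 higher with intervals apart in both runs. Of the mt- genes 7 were lower and 0 higher by that rule. All genes were not counted by it, so that nothing particular to the members or the mt- genes is read from these counts. The members' share was 2.20% and 1.85%, against 2.53% and 2.11% in resting DN3-like cells.

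Cox6b2 differed the most, with a log2 fold change of -4.14 ± 0.24 (adjusted p = 1.36e-61 in edgeR) and 5.44 and 5.59 CPM in NK-receptor-like against 120 and 106 CPM in DN3-like cells. This p-value rests on the trend over all genes and not on the spread of Cox6b2 between runs. Of the 10 higher members, 4 were of complex IV (of 13 tested) and 4 of complex I (of 36). Complex V (of 15) and the assembly factors of complex II (of 4) had 1 each. Ndufa4 stood at 522 and 376 CPM against 334 and 250 CPM (0.82 ± 0.14), Cox8a at 899 and 835 CPM against 550 and 585 CPM (0.81 ± 0.13), and Cox6a1 at 470 and 249 CPM against 301 and 188 CPM (0.73 ± 0.14). Next upward were Sdhaf1 (0.65), at 34.1 and 39.4 CPM against 21.2 and 31.1 CPM, and Ndufa13 (0.54), at 437 and 406 CPM against 309 and 352 CPM. The intervals overlapped in both runs for Sdhaf1 and in run 3 for Ndufa13. Downward, Uqcr11 differed by -0.67, Ndufc2 by -0.64, Ndufb9 by -0.63, Sdhd by -0.50 and Atp5b by -0.42, the last at 670 and 450 CPM against 1060 and 670 CPM. Of 13 mt- genes 3 were lower, mt-Co2 (-0.32), mt-Co1 (-0.24) and mt-Co3 (-0.24), and mt-Nd1 was higher (0.36). Of the alternatives, 5 gave 1 lower mt- gene and 2 gave 0, while cells within 1.5-fold of the median UMIs gave 4. The NK-receptor-like cells were shallower, with a median of 2673 and 5315 UMIs against 3827 and 6592.

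DN4-like cycling cells of run 1, set beside its DN3-like cycling cells at similar depth (a median of 9209 and 8908 UMIs), had 41 members higher, 3 lower and 43 with overlapping intervals. Of all 7869 genes with at least 100 UMIs over both kinds of cell, 9.0% were higher and 11.4% lower by the same rule, while among the 81 members with as many UMIs these were 41 and 3. Intervals are narrower for genes with more UMIs, such as Atp5b with 22248 and 9891. The genes were not matched for counts, so that these shares are not like for like. Atp5b stood at 2035 CPM against 1668, Uqcrc1 at 400 against 326, Ndufs1 at 59.8 against 45.4, and Cox6b2 at 19.9 against 41.1 CPM. With 1 library there is no replicate check. Of the mt- genes, 8 were lower and 1 higher.

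Other genes of the mitochondrion were counted by list. In cycling DN3-like cells, 47 of 77 genes of the mitochondrial ribosome were higher and 1 lower, led by Mrpl12 (log2 fold change 1.14) and with Mrpl24 at -0.50. Of 24 genes of protein import, 14 were higher and 0 lower, with Timm8a1 at 1.24. Of 13 genes of the citric acid cycle, 6 were higher and 0 lower, with Fh1, fumarate hydratase, at 0.99. Cycs (cytochrome c), Cyc1 and Atpif1 all rose, Cycs by 1.70. These lists sit beside the 19.4% and 19.8% of all genes given above. Assembly factors were mixed, with 10 of 35 higher and 4 lower, from Ndufaf5 at 1.25 to Ttc19 at -0.81. Of 12 genes of mitochondrial DNA and its transcription 3 were higher and 1 lower, from Polg, the DNA polymerase, at 1.30 to Mterf3 at -0.62, and of 8 regulators of biogenesis 3 were higher and 0 lower, with Ppargc1b at 1.18.

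Of all genes, 15.9% were higher and 14.8% lower in cycling DN2a-like cells, and 14.6% and 14.3% in cycling DN2b-like cells. In resting γδ-like against DN3-like cells it was 17.6% and 14.5%, and between resting DN3-like and DN2a-like cells 3.81% and 4.84%. A count near these shares is not read as a result about its list. In DN2a-like cells the mitochondrial ribosome had 21 higher and 1 lower of 77, import 5 and 0 of 24, the citric acid cycle 4 and 0 of 13, assembly 3 and 3 of 34, the group of Cycs 3 and 0 of 3, mitochondrial DNA 1 and 0 of 12, and biogenesis 1 and 0 of 8. In DN2b-like cells these were 19 and 3 of 77, 3 and 0 of 22, 5 and 0 of 13, 4 and 3 of 31, 3 and 0 of 3, 2 and 0 of 8, and 0 and 1 of 6. Cycs rose by 1.02 in DN2a-like and by 1.37 in DN2b-like cells. In resting γδ-like against DN3-like cells the mitochondrial ribosome had 2 higher and 26 lower of 77, mitochondrial DNA 1 and 5 of 11, assembly 0 and 4 of 30, import 0 and 3 of 22, the citric acid cycle 1 and 3 of 13, the group of Cycs 0 and 1 of 3, and biogenesis 1 and 1 of 6. Polg was higher there by 2.78 and Esrra, a nuclear receptor of energy metabolism, by 0.91, while Myc was lower (-2.03), and so was Lyrm7 (-2.23), which matures the Rieske protein. Between resting DN3-like and DN2a-like cells Cox14 was higher (0.41) and Cox20 lower (-0.54) among 32 assembly factors, Myc higher (0.46) among 5 regulators and Tomm40 higher (0.67) among 23 import genes, with 0 calls in the other lists. No gene of these lists passed in the test of the difference of the cycling effect. Unlike members and mt- genes, genes of these lists were not checked for passing the filter on low counts through 1 gate alone. The large fold changes of single genes, such as Polg and Lyrm7, are given with that limit.

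Markers of other cell types were summed in the gates after cells with 3 or more markers of a list had been set aside. The sums are thus limited by the gates themselves and are no independent check. The NK-receptor-like gate, tested in runs 2 and 3 alone, is not in the ranges below. Its resting cells there had 567.0 and 481.7 CPM of the myeloid or dendritic genes and 10.52 and 24.45 CPM of the B cell genes. The myeloid or dendritic list holds Fcer1g and Tyrobp, which are also found in NK-type cells. That sum is not split by gene here, so that it does not show myeloid cells in the gate. Over resting cells of the DN2a-like, DN2b-like, DN3-like and γδ-like gates, the 7 B cell genes summed to between 34.6 and 95.1 CPM, and over cycling cells to between 24.6 and 51.2 CPM. Nearly all of it was Cd79b, while Pax5 was at 0 in all resting sums. The 8 myeloid or dendritic genes summed to between 137.4 and 327.5 CPM at rest and between 130.2 and 244.0 CPM in cycle, mostly Cst3 (124.3 to 207.4 CPM at rest), with Tyrobp at up to 94.7, Lyz2 at up to 57.0 and Fcer1g at up to 41.1 CPM at rest, while Csf1r was at 0 at rest and at most at 0.179 CPM in cycle. The 6 erythroid genes summed to between 0 and 94.7 CPM at rest and between 0 and 72.1 CPM in cycle, with Hbb-bt at up to 89.5 CPM at rest and 64.5 CPM in cycle and Alas2 at 0 at rest. The 6 stromal or epithelial genes summed to between 21.3 and 156.4 CPM at rest and between 18.2 and 86.5 CPM in cycle, nearly all of it Epcam, with Krt5, Krt8 and Pdgfra at 0. With cells of the myeloid list gated by stage instead of set aside, 60 members were higher and 3 lower in cycling DN3-like cells, and 7 and 17 in resting γδ-like cells. Their part in the members' changes was not tested.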

How the data were processed

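Single-cell 3′ RNA libraries of pooled thymocytes were analyzed as 3 runs. Per the labels, the authors counted reads on mm10 with Cell Ranger, and the header of run 3 gives version 4.0.0. Which version and kit the other runs had is not given in the sources used here. The deposited values are raw UMI counts per gene for the cells that Cell Ranger called, without normalization. Many members have processed pseudogenes, and how reads were shared with them was not tested.

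Cells with 500 to 5000 genes and at most 7% mt- UMIs were kept, and no doublets were removed. Gates were called on the presence of UMIs, in an order in which B cell, myeloid or dendritic, erythroid and stromal cells (3 or more markers of a list) were set aside first. Shares have 95% exact Poisson intervals. For tests, counts were summed per gate and run where every run had at least 20 cells, and fitted in edgeR 4.0.16 (limma 3.58.1, R 4.3.3) with TMM, filterByExpr, the run as a block and the two-sided quasi-likelihood F test, with Benjamini-Hochberg adjustment over all genes but the gate markers, at 0.05. Each test of 2 gates used 6 sums with 2 residual degrees of freedom, and that of NK-receptor-like cells, in runs 2 and 3, used 4 sums with 1. The run pairs the gates because both come from 1 library of 1 pool. The deviations of a run from the gate means correlated at 0.618 to 0.921 over genes, gate against gate. As the runs are pools of different sorts, p-values refer to these runs alone. The spread used for a gene came mostly from the trend over all genes. In the cycling DN2a-like and the NK-receptor-like fits it came from that trend alone. A small p-value thus does not measure how well the runs agree for that gene. The scripts were tested on simulated data. DESeq2 1.42.0 and scanpy 1.11.5 (Scrublet) served for alternatives.

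Named members were, by rule, the one with the highest mean level per complex, the 5 largest calls in each direction with one direction in all runs, listed isoforms and core subunits, and the mt- genes. In each of 7 lists of other mitochondrial genes (assembly factors, cytochrome c with Cyc1 and Atpif1, citric acid cycle, mitochondrial ribosome, mitochondrial DNA and transcription, biogenesis regulators, import), genes with the largest calls were named. The members, lists and gates were chosen with earlier results of these data known. Values of a few genes that the rule or the marker lists take are not reported here.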

Additional observations from a re-analysis of the deposited data

How the results depend on the processing

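Each called member kept its direction under all alternatives in which it could be fitted. The median log2 fold change of the mt- genes in DN2a-like cells went from -0.13 to 0.01 with no filter on low counts, and that of all members in the NK-receptor-like comparison from -0.05 to 0.01 with no filter or with all gates in 1 fit. The members' share by run moved by little, though by more than its counting interval, with the highest Scrublet scores removed (700, 750 and 750 cells). It went from 3.434%, 2.764% and 2.341% to 3.426%, 2.757% and 2.336% in runs 1, 2 and 3. With an mt- limit of 5% it also moved by more than that interval, to 2.77% and 2.35% in runs 2 and 3. Without a limit on mt- UMIs it was 2.32% in run 3, and over UMIs without mt- and ribosomal genes 5.12%, 4.18% and 3.54%. The order of the runs was the same in each of these. Counts of members called depended most on the replicate block. With no replicate block (run left out of the model), 0 members were called between resting DN3-like and DN2a-like cells (1 with it), 0 (43) in cycling DN2a-like, 0 (45) in cycling DN2b-like, 1 (61) in cycling DN3-like, 1 (26) in γδ-like and 1 (23) in NK-receptor-like cells. Genes called higher and lower were then 8 and 5, 221 and 12, 192 and 18, 256 and 37, 283 and 193, and 118 and 123, and in the difference of the cycling effect 0 and 0. DESeq2 called 0, 28, 28 and 10 members between resting DN3-like and DN2a-like cells, in DN2a-like, DN2b-like and γδ-like cells, and 101 higher and 130 lower of all genes in the former and 629 and 424 in the last of these, and 10 members, with 1074 and 795 genes, in NK-receptor-like cells. Without the block, 1 mt- gene was lower in DN3-like cells and 0 were called between resting DN3-like and DN2a-like cells and in the other 4 comparisons of 2 gates. Leaving out each run in turn gave 0 to 3 members between resting DN3-like and DN2a-like cells, 31 to 40 in DN2a-like, 25 to 42 in DN2b-like, 44 to 57 in DN3-like and 11 to 24 in γδ-like cells. Without run 2 it was 0 between resting DN3-like and DN2a-like cells, 25 in DN2b-like and 16 in γδ-like cells, without run 3 it was 11 in γδ-like cells, and without run 1 it was 3 between resting DN3-like and DN2a-like cells. Counts of all genes moved by over 1.5 times without run 2 to 76 higher and 130 lower between those resting cells, to 840 and 624 in DN2a-like and to 682 and 391 in DN2b-like cells, without run 3 to 782 and 547 in DN2b-like and 757 and 647 in γδ-like cells, and without run 1 to 1429 and 998 in DN3-like cells. Genes called lower also moved by over 1.5 times, to 1199 (with 1621 higher) in DN3-like cells without run 2, to 685 (1512) in DN2a-like cells with no filter and to 664 (1123) in DN2b-like cells with all gates in 1 fit, as did genes called higher between resting DN3-like and DN2a-like cells with all gates in 1 fit, to 183 (290 lower). In the difference of the cycling effect (6 and 8) they were 4 and 4, 0 and 1, and 1 and 2 without runs 1, 2 and 3, 30 and 30 without a filter on low counts, 0 and 1 with all gates in 1 fit, and 22 and 22 with thinned gates. Gates called on cells thinned to 2000 UMIs gave 3 members (464 and 566 genes) between resting DN3-like and DN2a-like cells and 1 member in the difference of the cycling effect, and could not be fitted for DN2b-like cells. Cells within 1.5-fold of the median UMIs, an alternative chosen after seeing the data as was gating cells of the myeloid list by stage, gave 2 members in DN3-like cells and 12 (1279 and 1218 genes) in NK-receptor-like cells. The causes were not tested. With 2 runs for NK-receptor-like cells, no run could be left out there, since 1 run leaves no residual degrees of freedom. With 2 residual degrees of freedom per fit, and 1 there, the spread rests mostly on the trend over all genes. It rests on that trend alone for cycling DN2a-like and for NK-receptor-like cells. Members with few UMIs, such as Cox7a1 and Cox6a2, have wide intervals.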

Other observations

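Cells set aside from the stage gates also differed in the members' share of UMIs. Cells with at least 3 B cell genes numbered 5, 19 and 415 in runs 1, 2 and 3, and those of run 3 held 1.85% (1.83 to 1.86), below the 2.34% of all its kept cells. Cells with myeloid or dendritic genes numbered 28, 362 and 506, with 3.24%, 2.77% and 2.23%. Cells in no gate held 3.38%, 2.80% and 2.49%.

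The mt- genes did not keep 1 order over the runs. mt-Co2 stood at 2131, 2907 and 4562 CPM in runs 1, 2 and 3, mt-Nd2 at 568, 798 and 1259 CPM and mt-Nd5 at 106, 136 and 426 CPM, while mt-Atp6 stood at 6437, 7796 and 5214 CPM and mt-Nd1 at 2505, 2882 and 2028 CPM. Among the members, Sdhd stood at 182, 148 and 47.0 CPM.

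Some rows that the symbols take were not in every run under that name. Atp5s and Atp5sl of runs 1 and 2 are listed as Dmac2l and Dmac2 in run 3, and Atp5mpl and Atp5md of run 3 as 2010107E04Rik and Usmg5 in the others. Ndufb1-ps was listed in run 3 alone, at 285 CPM. With every row that the symbols take, the shares of the runs were 3.44%, 2.77% and 2.43%.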
